A study of Mus musculus with 3 samples.

Results

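The genes described here are the secreted and membrane-bound metalloproteinases that cut the extracellular matrix, with their tissue inhibitors. They were taken by symbol, as all Adamts, Adamtsl, Mmp and Timp genes with a family number, which gave 51 of the 23284 genes listed. There were 19 Adamts, 5 Adamtsl, 23 Mmp and 4 Timp genes. RNA was sequenced from cells sorted from mouse embryo digits while the finger joints form, with 3 libraries and 1 library per group. Lgr5+ cells were GFP-positive cells of forelimb digits, labelled interzone (the condensed layer where a joint will form), from Lgr5-eGFPCreERT2/+ embryos at E14.5 (E stands for embryonic day). Lgr5- cells were the GFP-negative, non-interzone forelimb digit cells of the same genotype and day. Sox9+ cells were GFP-positive digit cells of Sox9-eGFP/+ embryos at E13.5, whose limb the labels do not name. The strain of all 3 is given as C57/bl6, and each reporter is given as heterozygous. How many embryos were pooled is not given in the sources used here. Any difference between an E14.5 library and the Sox9+ library is also a difference of day and of reporter line, and perhaps of limb. These cannot be told apart.

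Enzymes of the Mmp family (matrix metalloproteinases) and the Adamts family (a disintegrin and metalloproteinase with thrombospondin motifs) are zinc-dependent proteases made as inactive precursors. Mmps cut collagens, gelatin, laminin and many other matrix and cell surface proteins, whereas several Adamts enzymes cut the large proteoglycans aggrecan and versican or trim procollagens. Adamtsl proteins resemble Adamts enzymes but have no protease domain, and several bind fibrillin microfibrils. Timps, the tissue inhibitors of metalloproteinases, bind the active site, and Timp3 also inhibits aggrecan-cutting Adamts enzymes. In the developing limb these proteins are known for clearing provisional matrix, for cartilage growth and for resorption of hypertrophic cartilage.

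The values were FPKM (fragments per kilobase of transcript, scaled by library size), which are per length and can be compared between genes. A fold is the ratio of FPKM + 1 between 2 libraries, which understates the difference of low genes. A gene was called different at 2-fold or more, and was counted as measured in a pair with at least 1 FPKM in the higher of its 2 libraries. With no replicates, there is no error, test or p-value, and what is compared is always 1 library with another. The files hold no counts, so depth is unknown. The FPKM summed to 534025 in Lgr5+ cells, 547115 in Lgr5- cells and 593871 in Sox9+ cells. Lgr5, whose reporter defined the E14.5 sort, stood at 26.8 FPKM in Lgr5+ cells, 1.36 in Lgr5- cells and 3.48 in Sox9+ cells. Gdf5, which marks the interzone, stood at 615 FPKM in Lgr5+ cells, 71.7 in Lgr5- cells and 59.9 in Sox9+ cells. Sox9 itself stood at 332, 147 and 255 FPKM in that order, so the Sox9 reporter sort did not hold the most Sox9 RNA. Markers of other cells moved with the libraries. Summed FPKM of 5 tendon markers was 484 in Lgr5+ cells, 165 in Lgr5- cells and 84.4 in Sox9+ cells, and that of 6 muscle markers was 77.5, 16.6 and 10.7. The 6 epidermal markers summed to 40.6, 12.6 and 19.0 FPKM and the 8 macrophage markers to 76.5, 31.1 and 10.5 FPKM. All 4 of these lists were highest in Lgr5+ cells. The 9 neutrophil and mast cell markers summed to 6.02, 47.8 and 1.32 FPKM, and the 5 red blood cell markers to 103, 3277 and 46.7 FPKM. The 6 endothelial markers summed to 7.11, 9.96 and 4.22 FPKM. These 3 lists of blood and vessel cells were highest in Lgr5- cells. A list of 12 dissociation stress genes summed to 4416, 4610 and 9066 FPKM, and 6 hindlimb genes to 79.5, 111.9 and 228.7 FPKM, both highest in Sox9+ cells. The part of these in any result below was not tested. In sorted bulk libraries, fewer cells of a type and less RNA per cell cannot be told apart.

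Of the 51 genes, 33 reached 1 FPKM in at least 1 library and 18 did not, including 7 listed at 0 in all 3. The measured share differed by family, with 17 of 19 Adamts, 5 of 5 Adamtsl and 3 of 4 Timp genes but 8 of 23 Mmp genes. Their RNA was concentrated in few genes. The 6 most abundant members, Mmp2, Mmp14, Adamts1, Timp2, Mmp11 and Timp3, held 84.9% of the summed FPKM of all 51 in Lgr5+ cells, 84.3% in Lgr5- cells and 81.8% in Sox9+ cells. Of the 33 measured genes, 12 were highest in Lgr5+ cells, 10 in Lgr5- cells and 11 in Sox9+ cells. Over all 12754 genes measured by the same minimum, those shares were 39.1%, 26.6% and 34.3%.

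**Figure D1:**
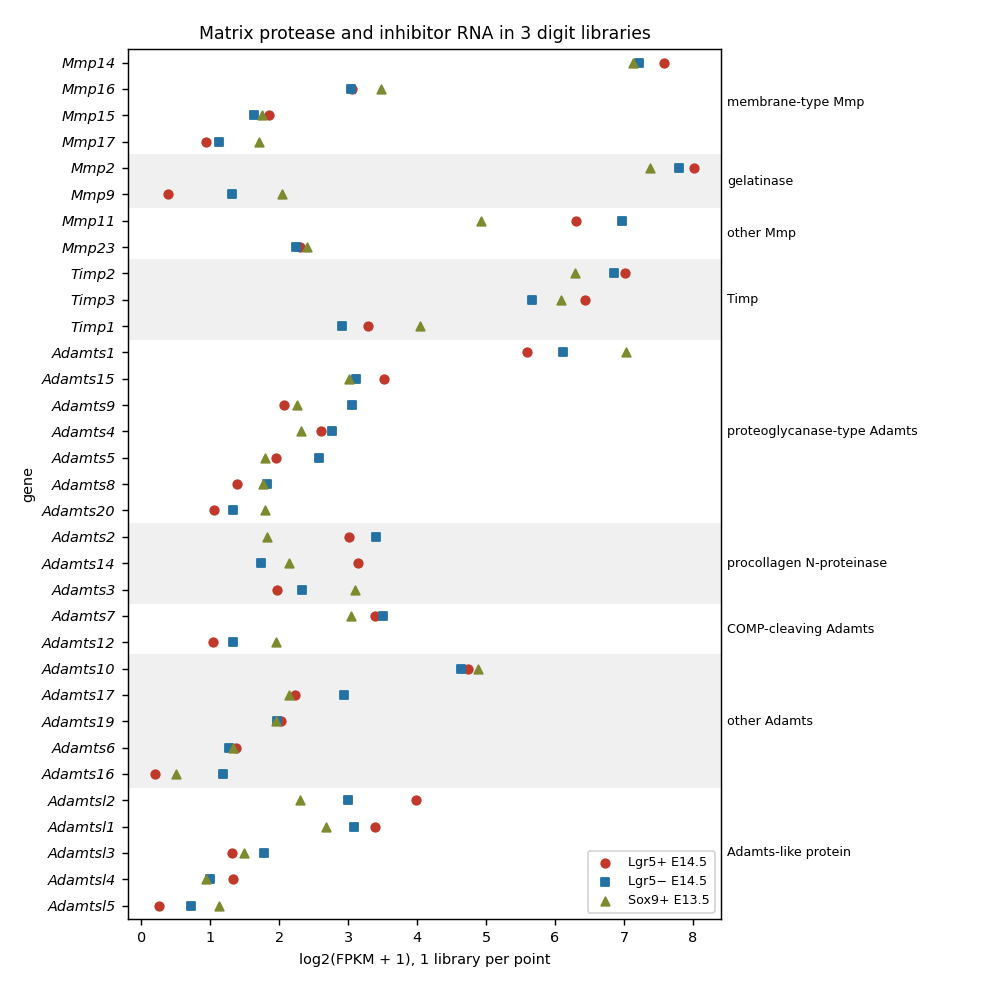
The horizontal axis is log2(FPKM + 1) and each point is 1 library; the 33 genes that reached 1 FPKM in any library are grouped by role. Mmp2, Mmp14, Timp2, Mmp11, Timp3 and Adamts1 lie to the right in all 3 libraries, and most other genes lie below 10.5 FPKM.

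Most of the Mmp genes without signal were neighbours. The 10 Mmp genes Mmp13, Mmp12, Mmp1b, Mmp3, Mmp1a, Mmp10, Mmp8, Mmp27, Mmp20 and Mmp7 lie in 427 kb of chromosome 9 (GRCm38, 7272514 to 7699585), with no other protein-coding gene between them in the GENCODE annotation. They encode collagenases, stromelysins, matrilysin, macrophage elastase and the enamel protease Mmp20, and GENCODE marks Mmp1a as a polymorphic pseudogene. No value of the 10 exceeded 0.11 FPKM in any library, and 6 were listed at 0 in all 3. Mmp13, the collagenase of hypertrophic cartilage and bone, was singled out after its values were seen. It was listed at 0.03 FPKM in Lgr5+ cells, 0 in Lgr5- cells and 0.05 in Sox9+ cells. Col10a1, the collagen gene of hypertrophic chondrocytes, had 2.24, 2.17 and 5.85 FPKM in that order. Outside the cluster, 8 of 13 Mmp genes reached 1 FPKM. Mmp1a and Mmp1b are close paralogs that could share reads, and since the handling of such reads is not stated, their 0 values are uncertain.

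The cluster genes also shared features upstream of their starts. Promoter windows from RefSeq (GRCm38.p6, 250 bases before to 50 after each start) were matched by symbol for 36 of the 51 genes, including all 10 of the cluster. Letters were searched on both strands. The AP-1 element TGAGTCA occurred in windows of 7 of the 10 cluster genes, against 5.95% of all 27025 genes with a window and 0 of the 26 other members with one. The TATA letters TATAAA occurred at any position in 9 of 10, against 15.7% of all genes and 3 of the 26 other members. Their first bases lay at -28 from the start in Mmp1a, -29 in Mmp10, -26 and -123 in Mmp7 and -49 in Mmp1b. In Mmp20 the position was -58, in Mmp13 -16, in Mmp3 -7 and in Mmp12 5. Mmp8 held them only on the reverse strand, at -3. Whether any of them acts as a TATA box was not tested. The RUNX element TGTGGT occurred in 4 of 10, against 18.9% of all genes and 2 of the 26. All 7 genes with the AP-1 letters also held the TATA letters, and no 2 of these letter strings overlap in the stretches printed. The 10 genes have 12 windows, since Mmp12 and Mmp7 have 2 each, and a gene was counted when any of its windows held the letters. GC content, averaged over the windows of a gene, ran from 37.7% to 46.7% in the cluster with a median of 42.8%, against a median of 52.8% over all genes. Single windows reached 52%, in the second window of Mmp7, which is also the one that holds its RUNX letters. A GC comparison over all members is void, since only 70.6% of them had a window. These genes are tandem relatives, so their windows are not independent of each other. The last 100 bases before the start are shown for the 7 cluster genes with AP-1 letters, 5′ to 3′ on the gene's strand, with AP-1 (or its reverse complement) and TATA letters in capitals. In Mmp12 the TATA letters lie just past the start and are outside the stretch.
Mmp13, chr9:7272414-7272513, plus strand: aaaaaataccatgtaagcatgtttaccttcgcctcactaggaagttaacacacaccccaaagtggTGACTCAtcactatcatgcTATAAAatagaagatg
Mmp12, chr9:7347274-7347373, plus strand: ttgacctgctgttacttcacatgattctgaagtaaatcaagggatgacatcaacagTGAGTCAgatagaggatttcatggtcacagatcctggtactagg
Mmp1b, chr9:7388027-7388126, minus strand: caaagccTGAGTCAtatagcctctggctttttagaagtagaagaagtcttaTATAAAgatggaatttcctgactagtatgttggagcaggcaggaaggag
Mmp3, chr9:7445722-7445821, plus strand: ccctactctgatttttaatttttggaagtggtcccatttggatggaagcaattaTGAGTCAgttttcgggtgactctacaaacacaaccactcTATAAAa
Mmp1a, chr9:7464041-7464140, plus strand: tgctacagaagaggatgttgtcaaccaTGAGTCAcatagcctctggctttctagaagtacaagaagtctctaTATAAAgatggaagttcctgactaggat
Mmp10, chr9:7502242-7502341, plus strand: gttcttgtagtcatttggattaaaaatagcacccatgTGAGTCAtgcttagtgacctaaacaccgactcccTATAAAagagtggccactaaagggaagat
Mmp7, chr9:7691990-7692089, plus strand: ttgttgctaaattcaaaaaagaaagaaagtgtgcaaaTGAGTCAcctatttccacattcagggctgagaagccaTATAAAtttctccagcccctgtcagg

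The same 100 bases are shown for 3 abundant members as a contrast. These 3 hold neither the AP-1 nor the TATA letters, which says only that those letters are absent from this window. Abundant members are not uniform in this, since Adamts1 has TATA letters that begin 32 bases before its start. Adamtsl2 and Mmp21 were the other two members outside the cluster with them. The 3 shown were chosen after their values were seen.
Mmp14, chr14:54431498-54431597, plus strand: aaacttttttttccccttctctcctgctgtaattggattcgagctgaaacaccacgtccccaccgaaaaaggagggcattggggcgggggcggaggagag
Mmp11, chr10:75932503-75932602, minus strand: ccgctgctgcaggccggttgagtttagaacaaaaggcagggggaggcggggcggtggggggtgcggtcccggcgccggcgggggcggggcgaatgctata
Timp3, chr10:86300312-86300411, plus strand: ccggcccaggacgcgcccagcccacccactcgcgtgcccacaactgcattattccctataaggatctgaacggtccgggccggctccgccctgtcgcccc

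Among the Mmps that were expressed, the most abundant were the pair that act together at the cell surface. Mmp14, the membrane-anchored enzyme that activates pro-Mmp2 in a complex with Timp2, stood at 190.0 FPKM in Lgr5+ cells, 148.0 in Lgr5- cells and 139 in Sox9+ cells. Mmp2, a secreted gelatinase, reached 258, 221 and 164 FPKM in that order. Mmp2 ranked 303rd among all genes by FPKM in Lgr5+ cells, 326th in Lgr5- cells and 497th in Sox9+ cells. Both were highest in the Lgr5+ library and lowest in the Sox9+ library, but by less than 2-fold, at most 1.57-fold for Mmp2 and 1.36-fold for Mmp14. The ratio of Mmp14 to Mmp2 FPKM was 0.735, 0.668 and 0.847. Mmp16, a second membrane-type enzyme, stood at 7.28, 7.22 and 10.1 FPKM and was within 2-fold in every pair. Mmp15, Mmp17 and Mmp23 ranged from 0.92 to 4.27 FPKM, while Mmp24, Mmp25, Mmp19, Mmp21 and Mmp28 stayed under 1 FPKM in every library.

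With the pseudocount of 1, Mmp11 showed the largest difference of any member. The gene (minus strand of chromosome 10, bases 75923222-75936496, positions of GRCm38 here and below) encodes stromelysin-3, an enzyme activated inside the cell and typical of stromal fibroblasts. Mmp11 stood at 77.6 FPKM in Lgr5+ cells, 124.8 in Lgr5- cells and 29.5 in Sox9+ cells. It was 4.13-fold higher in the Lgr5- than in the Sox9+ library and 2.58-fold higher in the Lgr5+ than in the Sox9+ library. Between the E14.5 libraries it was 1.60-fold lower in Lgr5+ cells, under the threshold. It made up 14.3% of the summed Mmp FPKM in Lgr5+ cells, 24.4% in Lgr5- cells and 8.26% in Sox9+ cells. Without Mmp11, the Mmp sum was 465, 386 and 327 FPKM. Exons of Mmp11 share 5.58% of their bases with Chchd10 on the other strand, and a kit that does not mark strand cannot separate these. Chchd10 itself stood at 3.52, 4.55 and 1.81 FPKM.

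Mmp9, the gelatinase of osteoclasts, neutrophils and macrophages, was low and was highest in Sox9+ cells. The gene (plus strand of chromosome 2, bases 164940780-164955850) stood at 0.31 FPKM in Lgr5+ cells, 1.48 in Lgr5- cells and 3.09 in Sox9+ cells. It was 3.12-fold lower in the Lgr5+ than in the Sox9+ library, and the log2 ratio of -1.64 became -2.96 with a pseudocount of 0.1. Markers of several cell types moved across the same libraries. The 6 osteoclast markers summed to 15.4 FPKM in Lgr5+ cells, 22.4 in Lgr5- cells and 9.75 in Sox9+ cells. Most of that was Ctsk, a protease of osteoclasts and fibroblasts, at 13.2, 20.3 and 6.10 FPKM, while the osteoclast phosphatase gene Acp5 stood at 1.94, 1.93 and 3.05 FPKM and the fusion gene Dcstamp at 0 in all 3. The 6 osteoblast markers summed to 6.63, 24.1 and 51.8 FPKM and the 6 hypertrophic chondrocyte markers to 101, 182 and 226 FPKM. These sums rose in the same order as Mmp9, as did those of the stress and hindlimb lists given above. Single markers did not all follow. Pth1r of the hypertrophic list stood at 72.3, 131.1 and 106.4 FPKM, and Bglap of the osteoblast list at 0.54, 0.90 and 0 FPKM. Of the 9 neutrophil and mast cell markers, 5 were at 0 in Lgr5+ cells, 0 in Lgr5- cells and 6 in Sox9+ cells. The part of any of these cells in the Mmp9 values was not tested.

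The inhibitors were expressed alongside the enzymes. Timp2 stood at 129 FPKM in Lgr5+ cells, 115 in Lgr5- cells and 76.9 in Sox9+ cells, the same order as Mmp2. The ratio of Timp2 to Mmp2 FPKM was 0.497, 0.518 and 0.468. Timp3, which binds to the matrix, stood at 85.5, 49.6 and 66.6 FPKM and was 1.71-fold higher in the Lgr5+ than in the Lgr5- library. Exons of Timp3 share 21.3% of their bases with Syn3 on the other strand, and Syn3 stood at 1.72, 1.13 and 0.90 FPKM. Timp1, an inducible inhibitor (plus strand of chromosome X, bases 20870166-20874735), stood at 8.79, 6.54 and 15.4 FPKM and was the 1 inhibitor called, 2.18-fold lower in the Lgr5- than in the Sox9+ library. The stress gene list was also higher in the Sox9+ library. Of its 12 genes, 6 were lower by 2-fold or more in Lgr5- cells, against 4.94% of all measured genes. Fos, Fosb, Jun, Junb, Ier2 and Egr1 of that list stayed within 2-fold. The part of this in the Timp1 values was not tested. Timp4 stayed under 1 FPKM. The summed Timp FPKM was 0.411 of the summed Mmp FPKM in Lgr5+ cells, 0.335 in Lgr5- cells and 0.446 in Sox9+ cells.

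**Figure D2:**
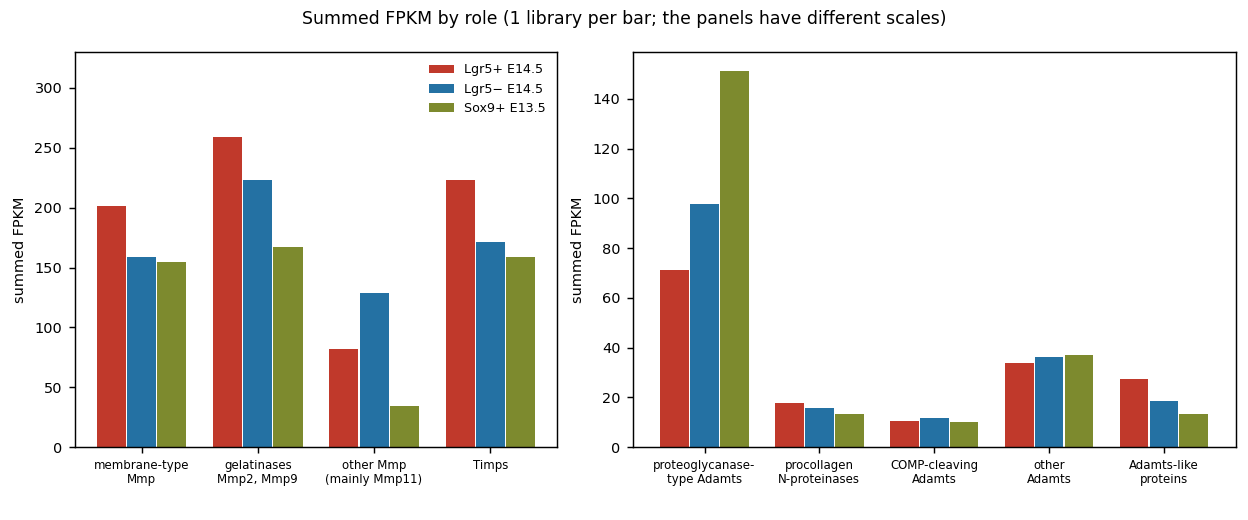
Bars give the summed FPKM of the genes of each role, 1 library per bar, with a separate linear scale from 0 in each panel. Gelatinase, membrane-type Mmp and Timp sums were highest in the Lgr5+ library, the other Mmp sum was highest in the Lgr5- library at 129 FPKM, and the proteoglycanase-type Adamts sum was highest in the Sox9+ library at 151 FPKM.

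Adamts1 held most of the RNA of the group of 7 genes related to aggrecan- and versican-cutting enzymes. Adamts1, a versicanase and aggrecanase whose RNA is known to be inducible (minus strand of chromosome 16, bases 85793827-85803113), stood at 47.0 FPKM in Lgr5+ cells, 68.1 in Lgr5- cells and 129 in Sox9+ cells. It was 2.71-fold lower in the Lgr5+ than in the Sox9+ library and 1.88-fold lower in the Lgr5- than in the Sox9+ library. It made up 66.0% of the summed FPKM of the 7 genes in Lgr5+ cells, 69.6% in Lgr5- cells and 85.4% in Sox9+ cells. The stress gene list had 7 of 12 genes lower by 2-fold or more in the Lgr5+ than in the Sox9+ library, against 3.96%. These were the heat shock genes Hspa1a, Hspa1b, Hspb1 and Dnajb1 and the inducible genes Atf3, Cyr61 and Egr1. The immediate early genes Fos, Fosb, Ier2, Jun and Junb stayed within 2-fold, and of them Jun and Junb were higher in Lgr5+ cells. The osteoblast, hypertrophic chondrocyte and hindlimb sums given above rose in the same order as Adamts1, though single markers did not all follow. The 7 cartilage markers summed to 2869, 1823 and 7023 FPKM, also highest in Sox9+ cells. Of these, Sox5 and Sox6 were higher in Lgr5+ than in Sox9+ cells. The part of any of these in the Adamts1 values was not tested. Versican (Vcan), its substrate, stood at 56.7, 31.3 and 45.7 FPKM, and aggrecan (Acan) at 28.6, 18.3 and 101.3 FPKM.

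The other 6 of these genes were low and none was called. Adamts5, the main aggrecanase of mouse osteoarthritis, stood at 2.85 FPKM in Lgr5+ cells, 4.94 in Lgr5- cells and 2.46 in Sox9+ cells. Adamts4, the other classical aggrecanase, stood at 5.05, 5.82 and 3.98 FPKM. Adamts9, a versicanase that acts with Adamts5 and Adamts20 in the regression of the mouse interdigital web, stood at 3.19, 7.33 and 3.79 FPKM, so the Lgr5- library was the highest for all 3. Adamts9 was 1.99-fold lower in the Lgr5+ than in the Lgr5- library, just within the threshold. It was called with 4 of the 6 alternative settings, and the others change only the minimum and leave its ratio as it was. Its exons share bases with 2 genes of the other strand, which were not analysed here. Adamts15, a versicanase, was highest in the Lgr5+ library, at 10.5 FPKM against 7.62 in Lgr5- cells and 7.08 in Sox9+ cells. Adamts8 and Adamts20 ranged from 1.08 to 2.52 FPKM. Neighbouring genes of the group did not share a level. Adamts1 and Adamts5 lie 53.1 kb apart on chromosome 16, and in the Sox9+ library stood at 129 and 2.46 FPKM. Adamts15 and Adamts8 lie 20.1 kb apart on chromosome 9, and in the Lgr5+ library stood at 10.5 and 1.61 FPKM.

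The 3 procollagen N-proteinases, which remove the amino-terminal propeptides of fibrillar procollagens, each peaked in a different library. Adamts14 (minus strand of chromosome 10, bases 61197112-61273438) stood at 7.81 FPKM in Lgr5+ cells, 2.32 in Lgr5- cells and 3.42 in Sox9+ cells. Adamts2 (plus strand of chromosome 11, bases 50602084-50807573), which acts mainly on collagens I and III, stood at 7.09, 9.58 and 2.54 FPKM. Adamts3 (minus strand of chromosome 5, bases 89677087-89883334), which can process collagen II and also the lymphatic growth factor Vegfc, stood at 2.90, 4.01 and 7.53 FPKM. The leading enzyme was therefore Adamts14 in the Lgr5+ library with 43.9% of their sum, Adamts2 in Lgr5- cells with 60.2% and Adamts3 in the Sox9+ library with 55.8%. Their summed FPKM lay closer together, at 17.8, 15.9 and 13.49.

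Folds of these 3 genes are each between 2 single libraries, with no value above 9.58 FPKM. Adamts14 was 2.65-fold higher in the Lgr5+ than in the Lgr5- library, and 1.99-fold higher in the Lgr5+ than in the Sox9+ library, just within the threshold. Adamts2 was 2.29-fold higher in the Lgr5+ and 2.99-fold higher in the Lgr5- than in the Sox9+ library. Adamts3 was 2.19-fold lower in the Lgr5+ and 1.70-fold lower in the Lgr5- than in the Sox9+ library. Their substrates ran as follows. Col2a1, the cartilage collagen, reached 2253, 1401 and 5304 FPKM in the Lgr5+, Lgr5- and Sox9+ libraries, highest where Adamts3 was highest. Between the E14.5 libraries the order differed, with Col2a1 higher and Adamts3 lower in Lgr5+ cells. Col1a1 stood at 1198, 998 and 769 FPKM, Col1a2 at 357, 450.5 and 261 FPKM and Col3a1 at 342, 416 and 368 FPKM. Markers of tendon, a tissue rich in collagen I, were highest in Lgr5+ cells. Of these, 4 of 5 were at least 2-fold above Lgr5- cells, against 3.64% of all measured genes. In the same pair, 6 of 8 joint interzone, 6 of 6 muscle, 4 of 5 epidermal and 3 of 7 macrophage markers measured were higher, with none lower. The part of any of these cells in the values of the 3 enzymes was not tested.

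**Figure D3:**
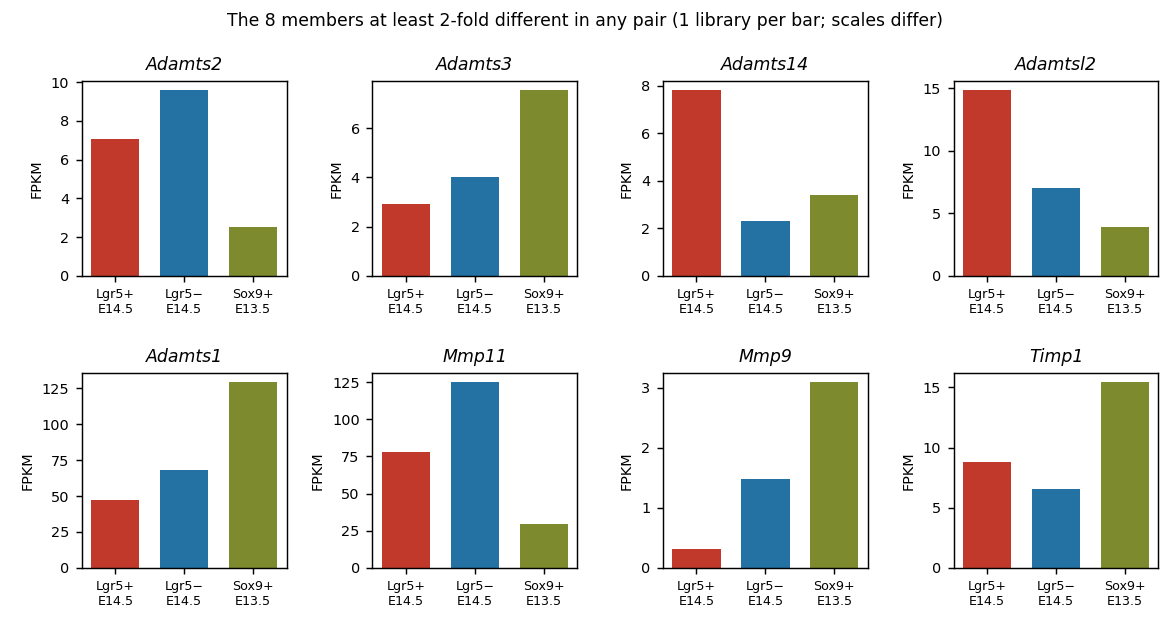
Bars give FPKM, 1 library per bar, on linear scales that start at 0 and differ between panels, for the 8 genes at least 2-fold different in any pair. Adamts14 and Adamtsl2 peak in Lgr5+ cells, Adamts2 and Mmp11 in Lgr5- cells, and Adamts3, Adamts1, Mmp9 and Timp1 in Sox9+ cells.

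Of the 5 Adamtsl genes taken by symbol, the 2 most abundant were both highest in the Lgr5+ library. Thsd4, also called Adamtsl6, is a relative that the symbol rule leaves out. Thsd4 stood at 18.63 FPKM in Lgr5+ cells, 27.55 in Lgr5- cells and 27.29 in Sox9+ cells, so it was lowest in the Lgr5+ library, within 2-fold. Adamtsl2, a microfibril-associated protein whose loss causes geleophysic dysplasia in humans (plus strand of chromosome 2, bases 27079379-27108981), stood at 14.8 FPKM in Lgr5+ cells, 6.99 in Lgr5- cells and 3.92 in Sox9+ cells. It was 3.22-fold higher in the Lgr5+ than in the Sox9+ library and 1.98-fold higher than in the Lgr5- library, just within the threshold, and was called there with 2 of the 6 alternative settings. Adamtsl1 stood at 9.44, 7.43 and 5.39 FPKM and was also highest in Lgr5+ cells, but within 2-fold. The muscle, tendon, epidermal and macrophage marker sums given above were likewise highest in the Lgr5+ library. So was the sum of 8 joint interzone markers, at 955, 198 and 194 FPKM. Single markers did not all follow, such as the epidermal Epcam at 3.90, 8.76 and 6.25 FPKM. The part of any of these cells in the Adamtsl2 values was not tested. Fibrillin genes did not follow as a pair, with Fbn1 at 12.3, 26.5 and 21.8 FPKM and Fbn2 at 137, 108.5 and 99.9 FPKM. Adamtsl3, Adamtsl4 and Adamtsl5 ranged from 0.19 to 2.42 FPKM.

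None of the remaining Adamts genes was called. Adamts10, a fibrillin-binding enzyme mutated in human Weill-Marchesani syndrome, stood at 25.6 FPKM in Lgr5+ cells, 23.9 in Lgr5- cells and 28.5 in Sox9+ cells. Adamts7, which can cut Comp, stood at 9.43, 10.3 and 7.26 FPKM. Comp itself stood at 3.90, 15.8 and 119.7 FPKM. Adamts17 was highest in the Lgr5- library, at 3.66, 6.67 and 3.42 FPKM, within 2-fold. Adamts6, Adamts12, Adamts16 and Adamts19 ranged from 0.15 to 3.05 FPKM. Adamts13, which cuts von Willebrand factor, was listed at 0 in all 3 and Adamts18 stayed under 1 FPKM.

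The comparison of Lgr5+ with Lgr5- cells, which asks what sets GFP-positive cells apart within one day and line, gave 1 called member. Of 32 members measured, Adamts14 was at least 2-fold higher and none was at least 2-fold lower, while 3.64% of all 12438 measured genes were higher and 1.89% lower. The share of members, 3.13% and 0%, was near or under that background, so the count is no result about the family. The median log2 ratio of the members was -0.05, against 0.08 over all measured genes. The members' log2 ratios ran from -0.99 (Adamts9) to 1.41 (Adamts14).

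Against the Sox9+ library, 3 of the 32 genes measured in the family were higher by 2-fold or more in Lgr5+ cells, while 4.33% of 12492 genes were. They were Adamtsl2, Mmp11 and Adamts2. Another 3 were at least 2-fold lower, while 3.96% of all genes were, namely Mmp9, Adamts1 and Adamts3. Each count is 9.38% of the members. The median log2 ratio was 0.07 over members and 0.06 over all genes. In Lgr5- cells, 2 of 33 members were at least 2-fold higher than in the Sox9+ library (Mmp11 and Adamts2), while 3.08% of 12482 genes were, and 1 (Timp1) was at least 2-fold lower, while 4.94% were. The median was 0.06 over members and -0.01 over all genes. Both comparisons use the same Sox9+ library, so the values of a gene in them are not independent. The Sox9+ library also had the highest hindlimb gene sum, with 4 of 5 measured hindlimb genes lower by 2-fold or more in Lgr5+ cells and 3 of 5 in Lgr5- cells. Hoxc10 stood at 0.37 FPKM in Lgr5+ cells, 0.21 in Lgr5- cells and 17.02 in Sox9+ cells, and Isl1 at 0.02, 0.14 and 6.86 FPKM. Tbx4 stayed within 2-fold, at 21.99, 28.02 and 36.81 FPKM. The part of limb in the members' values was not tested.

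**Figure D4:**
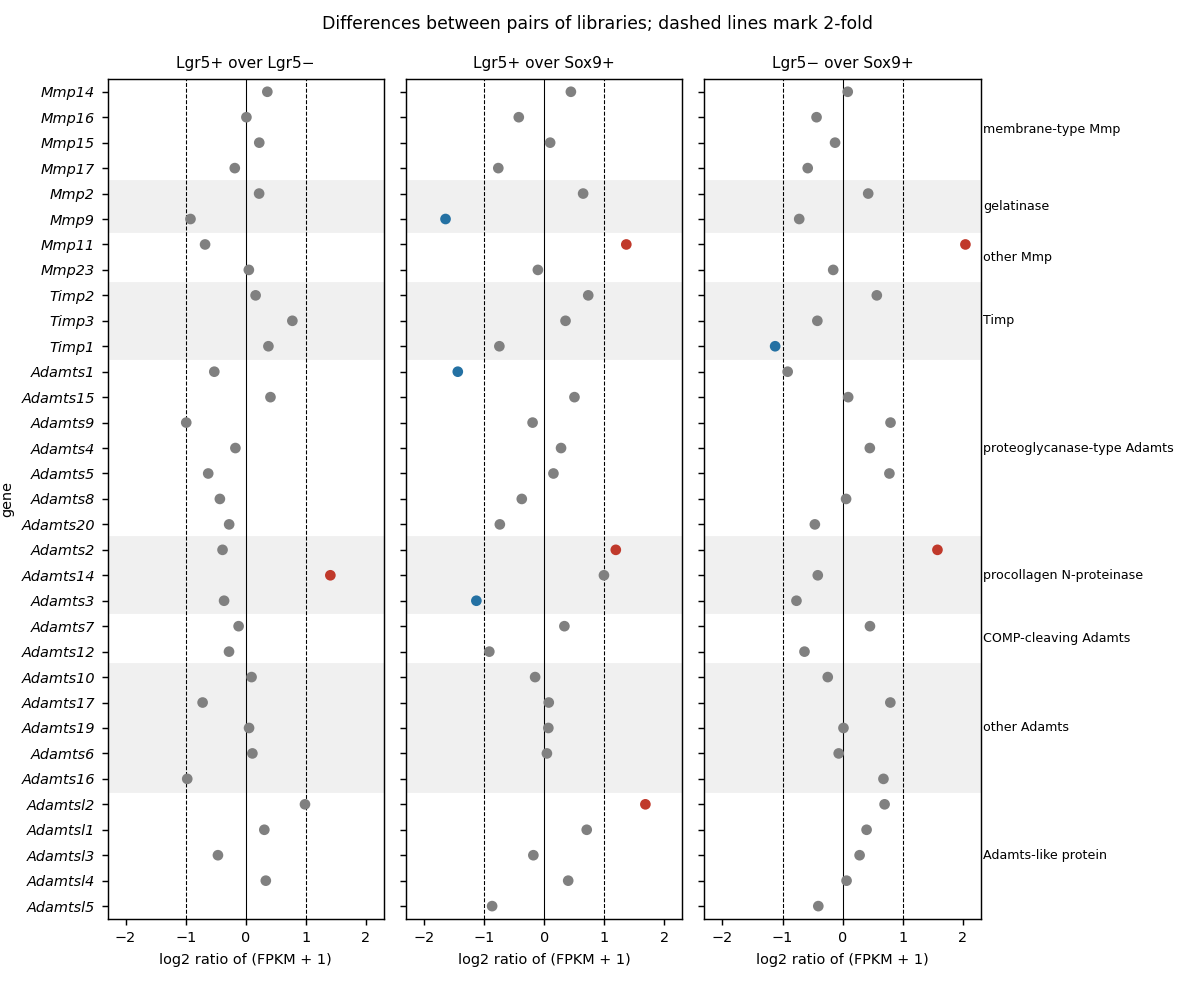
Each point is the log2 ratio of FPKM + 1 between 2 libraries for 1 measured gene, with dashed lines at 2-fold and genes grouped by role. Red points are at least 2-fold higher and blue points at least 2-fold lower. The Lgr5+ over Lgr5- panel holds 1 coloured point, Adamts14, at 1.41, and the highest point of the figure is Mmp11 at 2.05 in the Lgr5- over Sox9+ panel.

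Partners of the family were read from 4 lists. Of 11 inhibitor and clearance genes, 8 were measured in each pair. None was called between the Lgr5+ and Lgr5- libraries, and 2 of 8 were lower in the Lgr5+ than in the Sox9+ library, against 3.96% of all measured genes. These were Serpine2, a thrombin and plasminogen activator inhibitor (119, 165 and 302 FPKM in the Lgr5+, Lgr5- and Sox9+ libraries), and A2m, a broad protease trap (1.07, 1.35 and 4.44 FPKM). A2m was also the 1 gene of 8 lower in the Lgr5- than in the Sox9+ library, against 4.94% of all genes. Serpine2 was among the 5 most abundant of the list, and the others were the collagen chaperone Serpinh1, which is no protease inhibitor (792, 707 and 1289 FPKM), the Mmp inducer Bsg (469, 334 and 365 FPKM), Serpinf1 (77.6, 99.7 and 74.9 FPKM) and the uptake receptor Lrp1 (20.1, 28.7 and 23.7 FPKM). Reck, a membrane-anchored Mmp inhibitor named after its values were seen, stayed within 2-fold, at 19.9, 19.0 and 23.3 FPKM.

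Of 8 convertase and plasminogen genes, none of 6 measured was called between the Lgr5+ and Lgr5- libraries, and against the Sox9+ library 1 of 7 was lower in Lgr5+ cells and 2 of 7 in Lgr5- cells, where 3.96% and 4.94% of all measured genes were. Furin, which removes the propeptide of Mmp14, Mmp11 and many Adamts enzymes, stood at 30.0, 24.4 and 24.3 FPKM in the Lgr5+, Lgr5- and Sox9+ libraries. Pcsk6 stood at 16.1, 29.9 and 30.6 FPKM, Pcsk7 at 11.6, 9.07 and 7.62 FPKM and Pcsk5 at 4.37, 4.37 and 5.64 FPKM. The urokinase gene Plau (0.03, 0.26 and 1.87 FPKM) was lower in both E14.5 libraries than in the Sox9+ library, by 2.79-fold in the Lgr5+ and 2.28-fold in the Lgr5- library. The tissue activator gene Plat (4.19, 1.85 and 6.34 FPKM) was 2.58-fold lower in the Lgr5- than in the Sox9+ library. Plasminogen itself (Plg) was listed at 0 in all 3.

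The list of other matrix-directed proteases also holds genes that are no proteases, such as the enhancer Pcolce. Of its 21 measured genes, 1 was at least 2-fold higher in the Lgr5+ than in the Lgr5- library, near the 3.64% of all genes. Against the Sox9+ library, 5 were higher and 1 lower in Lgr5+ cells (4.33% and 3.96% of all genes), and 4 were higher and 1 lower in Lgr5- cells (3.08% and 4.94% of all genes). The serine protease gene Htra3 stood at 35.6, 12.4 and 10.6 FPKM in the Lgr5+, Lgr5- and Sox9+ libraries and Htra1 at 73.2, 40.9 and 35.3 FPKM. Adam15 stood at 21.1, 10.2 and 8.37 FPKM, and the lysosomal genes Ctsb at 91.9, 62.0 and 43.6 FPKM and Ctss at 4.26, 3.93 and 0.53 FPKM. Ctss is a macrophage gene. The 8 macrophage markers summed to 76.5, 31.1 and 10.5 FPKM, while Ctss differed 1.07-fold between the Lgr5+ and Lgr5- libraries. The part of macrophages in the Ctss values was not tested. Ctsk (13.2, 20.3 and 6.10 FPKM), the fibroblast protease Fap (3.85, 6.26 and 1.50 FPKM) and Adam33 (1.69, 4.26 and 0.61 FPKM) were, with Ctss, the 4 genes higher in the Lgr5- than in the Sox9+ library. The procollagen C-proteinase Bmp1 stayed within 2-fold (79.2, 83.2 and 63.8 FPKM) and its enhancer Pcolce stood at 92.5, 132.3 and 91.1 FPKM. A second enhancer, Pcolce2, was lower in both E14.5 libraries (8.77 and 14.54 FPKM, against 34.2 FPKM in the Sox9+ library). Ctsd, the most abundant cathepsin, stood at 123, 85.8 and 85.8 FPKM.

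Of 17 substrates measured, 3 were higher and 4 lower in the Lgr5+ than in the Sox9+ library, where 4.33% and 3.96% of all genes were. Of 16 measured, 1 was higher and 4 lower in the Lgr5- than in the Sox9+ library, where 3.08% and 4.94% of all genes were, so the 1 higher gene is near the background. The 4 lower ones were Acan, Comp, Col2a1 and Col10a1 in both comparisons, which share the Sox9+ library. The small proteoglycan gene Dcn was higher in both (115 FPKM in the Lgr5+, 36.0 FPKM in the Lgr5- and 7.97 FPKM in the Sox9+ library). Bcan (4.13, 0.49 and 1.37 FPKM) and Ncan (1.51, 0.49 and 0.23 FPKM), relatives of aggrecan typical of brain, were the other two higher in the Lgr5+ library. Between the Lgr5+ and Lgr5- libraries, Dcn and Bcan were higher and Comp and Fbn1 lower, of 17 measured, where 3.64% and 1.89% of all genes were. Bgn, another small proteoglycan, stood at 164, 127.6 and 82.6 FPKM.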

How the data were processed

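Per the labels' protocols, digit cells were digested, sorted by GFP, and 10 ng of RNA per sample went into cDNA synthesis with a SMARTer low-input kit, which does not mark strand. The submitters' processing notes name HISAT2 and GRCm38 (mm10). How FPKM were made, from which annotation, and how multi-mapping reads were handled is not stated there. The authors deposited FPKM per gene symbol, rounded to 2 decimals, with no counts.

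Ratios of FPKM + 1 were computed in Python 3.11.15 with pandas 2.3.3, and the calling step was run on simulated data. That simulation planted changes larger than 2-fold in genes at 5 FPKM or more. It used an assumed depth and counting noise only, so it does not check calls near 2-fold, low genes or variation between libraries. Gene positions and exon overlaps came from GENCODE M21 (GRCm38). Named with values were members at least 2-fold different in any pair and the 20 most abundant, and, of the partner lists, genes 2-fold different and the 5 most abundant. Members, lists and settings were chosen with earlier results of these data known, and the stress and hindlimb lists were added last. Alternatives changed the pseudocount, the minimum and the scaling.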

Additional observations from a re-analysis of the deposited data

How the results depend on the processing

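With 6 alternative settings, all 10 calls of members kept their direction and stayed at 2-fold or more wherever they could be made; Mmp9 fell below the 5 FPKM minimum. Of 368 named member ratios under the alternatives, 357 stayed on their side of 2-fold and 11 crossed to a call. The settings that change only the minimum leave every ratio as it was. Of the 357, 63 without a minimum and 53 at 5 FPKM could therefore not have moved. The same holds for the 10 calls under those settings. A pseudocount of 0.1 can only make a ratio larger in size, so no call could be lost under it either. Only the scaling settings could have lost a call, and every setting uses the same single libraries. Between the Lgr5+ and Lgr5- libraries, the count of higher members was 2 with a pseudocount of 0.1 and 2 after rescaling to TPM, and that of lower members was 3 with a pseudocount of 0.1, 3 with TPM, 1 with median of ratios and 2 with upper quartile scaling. Adamts9 was among the lower ones each time. With a pseudocount of 0.1, lower members numbered 7 in the Lgr5+ over Sox9+ comparison and 2 in the Lgr5- over Sox9+ comparison. Rescaling to TPM moved the median of all genes to 0.21 from 0.06 for Lgr5+ over Sox9+ and to 0.10 from -0.01 for Lgr5- over Sox9+, and the members' medians to 0.21 and 0.16. At a minimum of 5 FPKM the members' medians were 0.13 (Lgr5+ over Lgr5-), 0.44 (Lgr5+ over Sox9+) and 0.41 (Lgr5- over Sox9+), over fewer genes. Upper quartile scaling gave -0.16 for Lgr5+ over Lgr5-. No paired analysis was possible because each group has 1 library. Depth is unknown, so a value near 0 FPKM sets no limit on expression.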
